A study of Mus musculus with 10 samples.

Results

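Sfrp1, a secreted antagonist of WNT signalling, was lower in the caudal than in the rostral neocortex of E11.5 mouse embryos on all 10 arrays, about 2.25-fold at 1 of its probes and 2.12-fold at the other. It did not pass the adjusted test over all probes in the fit of pools, and passed in 1 alternative fit. The other 3 antagonists that could be tested, Sfrp2, Frzb and Dkk2, had mean caudal over rostral ratios between -0.050 and 0.11 on the log2 scale, with intervals that include 0. The remaining 5, Sfrp4, Sfrp5, Dkk1, Dkk3 and Wif1, gave too few values for a test. The 9 genes were chosen by name as the Sfrp and Dkk families with Frzb and Wif1, and every probe whose only gene symbol was one of these names was taken. That gave 10 probes, 2 for Sfrp1 and 1 for each other gene, of 21766 probes and 15063 named genes on the array.

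WNT proteins are secreted signals that bind Frizzled receptors and LRP co-receptors on the receiving cell, which stabilises beta-catenin and turns on target genes. Secreted antagonists act outside the cell by 2 routes. Sfrp proteins, Frzb among them, and Wif1 bind the WNT protein itself, whereas Dkk1 and Dkk2 bind the co-receptors. In the early cortex WNT ligands come from the cortical hem, at the caudal and medial edge of the neocortical sheet, while FGF signals come from its rostral pole.

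The study asked which genes differ between the ends of the early neocortical sheet. Each sample was a pool of tissue from the rostral or the caudal end of the neocortex of 3 embryos. After amplification of the cDNA, both ends of a pool were hybridised together on 2-colour arrays. There were 2 pools of C57, an inbred strain, and 3 pools of MF1, an outbred strain, which the study used to allow for strain differences. Each pool was run on 2 arrays with the dyes exchanged, 10 arrays in all. No embryo carried a mutation or had a treatment according to the labels, and the text of the series speaks of 3 sets per strain, of which 2 C57 pools were analysed here. The labels do not say whether pools of a strain came from different litters, so p-values measure only the spread between these pools.

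Values are given as caudal over rostral on the log2 scale, so a value of -1 means a caudal level at 50% of the rostral one. They are ratios within an array and give no level of a gene. Whether the deposited ratios are Cy5 over Cy3 is not stated, and this direction is a likely one: it places Nr2f1, a nuclear receptor known to be high caudally, at 1.85 ± 0.22 (moderated SE, n = 5 pools; positive on 10 of 10 arrays) at 1 of its probes and at 0.57 ± 0.20 at the other. It also places Spry1, a feedback inhibitor of FGF signalling, at -1.28 ± 0.14, negative on 10 of 10 arrays. The opposite reading would turn every sign given here. The arrays agreed poorly over all probes, even within a pool, and differed in their median ratio and in the number of probes measured. Arrays of different pools with the same dye order mostly correlated more than the 2 arrays of a pool. Over all probes, the 2 arrays of a pool correlated between -0.25 and 0.03 once turned to the same direction, arrays of different pools with the same dye order between 0.02 and 0.44, and those with opposite order between -0.40 and 0.04. The median ratio of an array lay between -0.45 and 0.67. C57 arrays gave a ratio for 20191 to 20870 probes and MF1 arrays for 13723 to 18288. Fewer cells of a type and less RNA per cell cannot be told apart in such bulk tissue.

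Sfrp1 is the antagonist with the clearest regional ratio. It is known as a protein of cortical progenitors that binds WNTs through a domain shared with Frizzled receptors. At probe 1, annotated by a reference mRNA, the array with the caudal sample in Cy5 and its partner in Cy3 gave -1.89 and -2.08 for C57 pool 1, -1.12 and -1.35 for C57 pool 2, -1.12 and -1.09 for MF1 pool 1, -0.62 and -0.58 for MF1 pool 2, and -0.56 and -0.42 for MF1 pool 3. All 10 values were negative, the lowest in C57 pool 1 and the highest in MF1 pool 3. At probe 2, annotated by a cDNA clone, the same arrays gave -1.23 and -1.50, -0.68 and -1.28, -1.24 and -1.10, -1.07 and -0.99, and -0.81 and -0.73. Here too every array was negative, and the values of the strains overlapped.

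**Figure D1:**
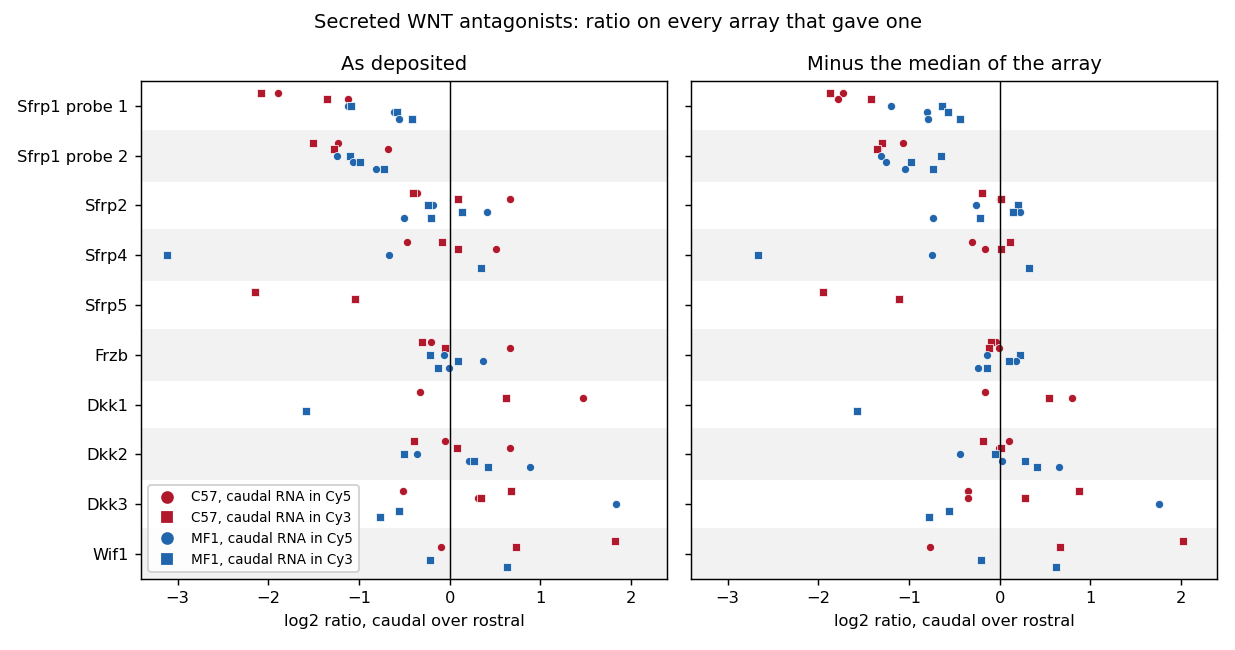
Log2 ratio of caudal over rostral for each of the 10 antagonist probes on each array that gave a value, as deposited (left) and minus the median of the array (right); red is C57, blue is MF1, circles have the caudal RNA in Cy5 and squares in Cy3. Both Sfrp1 probes lie left of 0 on all 10 arrays in both panels, Sfrp2, Frzb and Dkk2 lie on both sides of 0, and the other 5 genes have values on 2 to 7 arrays.

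Averaged over both strains, probe 1 was at -1.17 ± 0.19 (moderated SE, n = 5 pools; 95% interval -1.64 to -0.70), a caudal level 2.25-fold below the rostral one. Probe 2 was at -1.08 ± 0.15 (95% interval -1.46 to -0.70), 2.12-fold below. In the limma fit over 11855 tested probes their unadjusted p-values were 0.000974 and 0.000491, the 9th and the 6th smallest. After Benjamini-Hochberg adjustment they were 0.983 and 0.970, so neither passed the threshold of 0.05. No probe passed in this fit: 0 of 11855 (0%) had an adjusted p under 0.05, while 132 negative (1.11%) and 235 positive probes (1.98%) had an unadjusted p under 0.05. With an exact sign-change test over the 5 pools, each Sfrp1 probe had a two-sided p of 0.0625, the smallest that 5 pools allow, and 0.156 adjusted over the 5 antagonist probes tested.

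The call of Sfrp1 depended on how the arrays were used. When the 10 arrays were each centred on their median and fitted singly, with a dye term and the pool as a random block, 8 probes passed and both Sfrp1 probes were among them, at adjusted p = 0.00301 for probe 1 and 0.00622 for probe 2. The same fit without centring gave 0.0570 for each, and over all alternatives the adjusted p ran from 0.00301 to 1 for probe 1 and from 0.00622 to 1 for probe 2. The ratio itself moved little with centring, to -1.22 ± 0.12 and -1.13 ± 0.12 in the pool fit, where the p-value of probe 1 became the smallest and that of probe 2 the 3rd smallest of all probes. Without any 1 of the pools, the mean stayed between -1.36 and -0.98 for probe 1 and between -1.18 and -0.98 for probe 2.

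Few probes were negative on every array. Of the 8924 probes measured on all 10, 19 (0.213%) were, and both Sfrp1 probes were among these 19. Only 5 of the 19 had a mean ratio at or below that of Sfrp1 probe 2, the Sfrp1 probes included. With each array centred on its median, 30 probes (0.336%) were negative on all 10 arrays, again with both Sfrp1 probes. Among all tested probes, 0.160% had a lower ratio than probe 1 and 0.253% a lower ratio than probe 2.

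**Figure D2:**
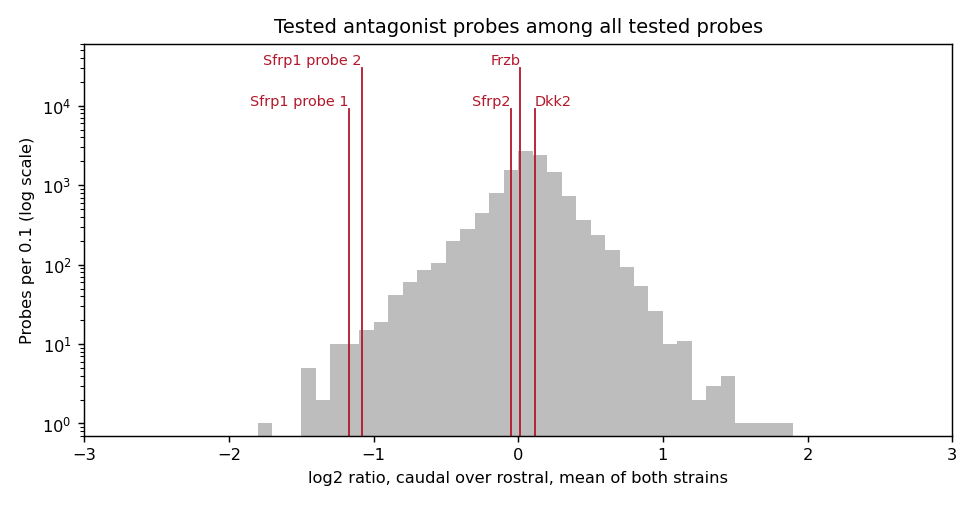
Number of tested probes (log axis) by log2 ratio of caudal over rostral, mean of both strains, for all 11855 tested probes in steps of 0.1, with the 5 tested antagonist probes as lines. The Sfrp1 probes, at -1.17 and -1.08, lie in the left tail, and Sfrp2, Frzb and Dkk2, at -0.050, 0.015 and 0.11, lie in the bulk of the probes.

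In the values as deposited, exchange of the dyes changed Sfrp1 less than most probes. The gap between the 2 arrays of a pool had a median over pools of 0.139 for probe 1 and 0.138 for probe 2, against 0.500 for the median tested probe. Of the tested probes, 4.40% had a smaller gap than probe 1 and 4.26% a smaller gap than probe 2. The largest gap of probe 1 was 0.235. That of probe 2 was 0.601, in C57 pool 2, where the array with caudal RNA in Cy5 had the highest median of all arrays, 0.67; relative to their medians, the arrays of that pool gave -1.34 and -1.35 at this probe. In MF1 pool 1 the same step widened the gap, from -1.24 and -1.10 to -1.31 and -0.65 at probe 2 and from -1.12 and -1.09 to -1.20 and -0.64 at probe 1. It also widened the gap in MF1 pools 2 and 3 at both probes. In C57 pool 2 it widened that of probe 1, to -1.78 and -1.42. The comparison with all tested probes was not made on centred arrays.

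Both Sfrp1 probes were negative in every pool of C57 and of MF1. At probe 1 the ratio was -1.61 ± 0.29 in C57 (n = 2 pools), 3.05-fold below rostral, and -0.73 ± 0.24 in MF1 (n = 3 pools), 1.66-fold below. Both C57 pools lay below all 3 MF1 pools, as was the case for 76 of 8924 probes (0.852%). That share was counted on pools as deposited, so offsets between the pools enter it. The median tested probe was at 0.36 in C57 pool 2 and at -0.18 in MF1 pool 1. The share among centred pools was not counted. The difference, MF1 minus C57, was 0.88 ± 0.38 (95% interval -0.06 to 1.81), with an unadjusted p of 0.0608 and an adjusted p of 0.999 by limma. At probe 2 the ratio was -1.17 ± 0.24 in C57 and -0.99 ± 0.19 in MF1. Their difference was 0.18 ± 0.30 (95% interval -0.57 to 0.94, limma unadjusted p = 0.571), and the pools of the strains overlapped as deposited. No probe passed for the strain difference (0 of 11855, 0%), while 223 had an unadjusted p under 0.05.

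The strain difference depended on the scaling of the arrays. With each array centred and scaled to a common spread, MF1 minus C57 was 1.88 ± 0.32 at probe 1 (unadjusted p = 0.00132, adjusted p = 0.934) and 1.11 ± 0.35 at probe 2 (unadjusted p = 0.0209, adjusted p = 0.999). Neither passed, and over the alternatives the adjusted p ran from 0.613 to 0.9998 at probe 1 and from 0.933 to 0.9998 at probe 2. As deposited, the pools of the strains were separate at probe 1 and overlapped at probe 2. Probe 1 minus probe 2 was -0.62 in C57 pool 1, -0.26 in C57 pool 2 and 0.07, 0.43 and 0.28 for MF1. Probe 1 was the lower one in both C57 pools and the higher one in the 3 MF1 pools. The mean difference was -0.020 (SD 0.42, n = 5, exact sign-change test, p = 1). Opposite signs in the strains cancel in this mean, so the test cannot show whether the probes agreed. Centring the arrays leaves probe 1 minus probe 2 unchanged. It put the strain difference of probe 1 at 0.96 ± 0.24 (limma, unadjusted p = 0.00838, adjusted p = 0.999). That of probe 2 became 0.27 ± 0.23 (limma, unadjusted p = 0.294, adjusted p = 0.999). Its centred pools no longer overlapped, at -1.19 and -1.35 for C57 and -0.98, -1.12 and -0.89 for MF1. The closest pools of the strains were at -1.19 and -1.12. How many of all probes have centred pools so separated was not counted, so no strain difference is read from this.

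**Figure D3:**
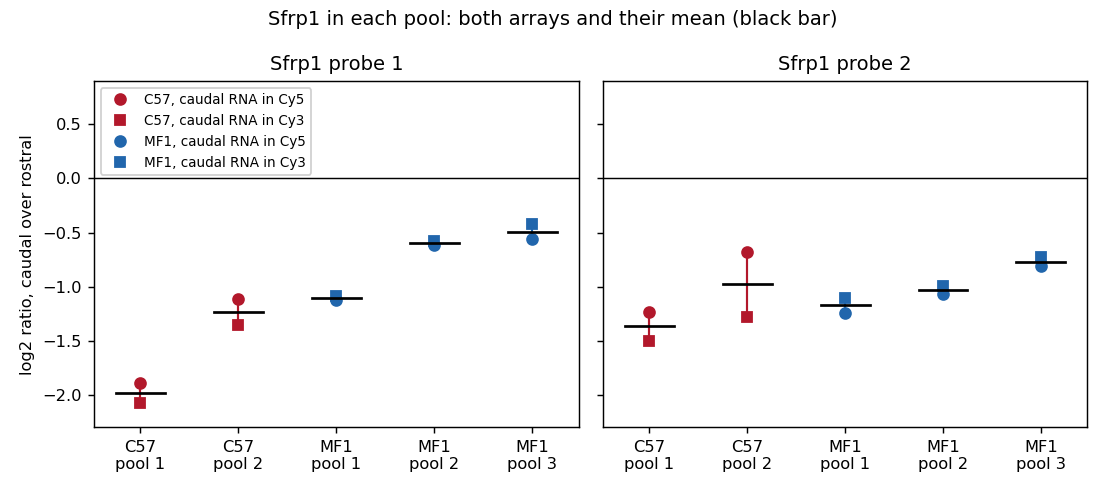
Log2 ratio of caudal over rostral for Sfrp1 probe 1 (left) and probe 2 (right) in each pool; circles have the caudal RNA in Cy5, squares in Cy3, and the black bar is the mean of the 2 arrays. Values are as deposited, with no centring of arrays. At probe 1 the C57 pools lie below the MF1 pools, whereas at probe 2 the pools of the strains overlap, between -1.37 and -0.77.

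Sfrp2, the closest relative of Sfrp1 among the tested genes and known from the boundary between the pallium and the ventral telencephalon, had no regional ratio of this size. Its pool values were -0.38 in C57 pool 1, 0.38 in C57 pool 2 and -0.22, 0.27 and -0.36 in the 3 pools of MF1. Pools of each strain lay on both sides of 0. The mean was -0.050 ± 0.19 (95% interval -0.52 to 0.42; unadjusted p = 0.799, limma).

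Frzb, an Sfrp protein first known from cartilage, was also near 0. C57 pools 1 and 2 gave -0.25 and 0.31, and MF1 pools 1 to 3 gave -0.14, 0.23 and -0.07. Again both strains had values of both signs. Its mean of 0.015 ± 0.16 (95% interval -0.38 to 0.41; unadjusted p = 0.929) turned to -0.035 ± 0.12 with the arrays centred, so its sign is not settled.

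Dkk2, which binds the co-receptors and can dampen or enhance WNT signalling depending on the cell, gave -0.22 for C57 pool 1, 0.37 for C57 pool 2 and, in the order of the numbers, -0.43, 0.24 and 0.65 for MF1. MF1 pools 1 and 3 were its lowest and highest samples. The mean was 0.11 ± 0.21 (95% interval -0.42 to 0.64; unadjusted p = 0.614) and 0.063 ± 0.15 after centring. For none of Sfrp2, Frzb and Dkk2 did the interval reach the mean of either Sfrp1 probe. Their MF1 minus C57 differences were -0.098 ± 0.38, -0.022 ± 0.32 and 0.079 ± 0.43.

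Centring the arrays narrowed the scatter of these 3 genes over the pools. On the C57 pool 2 array with the highest median, Sfrp2, Frzb and Dkk2 lay within 0.01 of that median, at -0.002, -0.008 and -0.004 from it. They did not on every array: on that of MF1 pool 3 with the caudal sample in Cy5 they lay -0.733, -0.241 and 0.651 from the median. With all arrays centred, the SD over the 5 pools went from 0.359 to 0.250 for Sfrp2, from 0.242 to 0.125 for Frzb and from 0.442 to 0.288 for Dkk2. For Sfrp1 it went from 0.596 to 0.544 at probe 1 and from 0.223 to 0.177 at probe 2.

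Differences between antagonists within a pool do not depend on the median of an array. Sfrp1 was below each of the other 3 tested genes in 5 of 5 pools at both probes. Probe 1 lay below Sfrp2 by a mean difference of -1.02 (SD 0.62, n = 5 pools), Frzb by -1.10 (SD 0.54) and Dkk2 by -1.20 (SD 0.47). Probe 2 lay below them by -1.002 (SD 0.38), -1.08 (SD 0.23) and -1.18 (SD 0.27). The smallest of these gaps was -0.13, between Sfrp1 probe 1 and Sfrp2 in MF1 pool 3. Each of the 6 comparisons had an exact two-sided sign-change p of 0.0625, the smallest that 5 pools allow, and 0.0625 after adjustment over the 6. Sfrp1 was the tested antagonist furthest from 0 in these same pools, and all 6 comparisons use its values. They are therefore not separate support for its ratio.

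The 5 antagonists without a test were missing on many arrays, always as an empty value, mostly in MF1. Sfrp5, another WNT-binding Sfrp protein, was measured on 2 arrays only. Both were C57 arrays with caudal RNA in Cy3, at -2.15 for pool 1 and -1.04 for pool 2. Both were negative, like the Sfrp1 values of these pools, but no array of the other dye order gave a value, so an effect of the dye and one of the region cannot be told apart.

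Sfrp4, known for its role in bone, was measured on 7 arrays. Its C57 values were -0.47 and -0.09 for pool 1 and 0.51 and 0.09 for pool 2. In MF1 pool 1 the arrays of opposite dye order gave -0.67 and -3.12, a gap of 2.44, and MF1 pool 3 gave 0.34 on 1 array. The single low array made the mean of MF1 pool 1, and no common direction was seen.

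Dkk1, an inducer of the head in early embryos through WNT inhibition, was measured on 4 arrays. They gave -0.33 for C57 pool 1, 1.47 and 0.62 for C57 pool 2 and -1.58 for MF1 pool 2. Only C57 pool 2 had both dye orders, both positive. Dkk3, a divergent member of the family whose effect on WNT signalling is less clear, was measured on 7 arrays. C57 pool 1 gave -0.52 and 0.67, C57 pool 2 gave 0.31 and 0.35, and MF1 pools 1, 2 and 3 gave 1.83, -0.56 and -0.77 on 1 array each. The sign thus differed between the dye orders of C57 pool 1. In MF1 the pool 1 array had caudal RNA in Cy5 and those of pools 2 and 3 in Cy3. A difference between these pools and one between dye orders therefore cannot be told apart.

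Wif1 was measured on 5 arrays, with 1.82 for C57 pool 1, -0.10 and 0.73 for C57 pool 2, -0.22 for MF1 pool 2 and 0.63 for MF1 pool 3. The arrays had both signs in both strains. For these 5 genes the files therefore do not show whether the caudal and rostral levels differed.

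Among other secreted antagonists and modulators of WNT signalling the ratios went both ways. Of 10 such genes listed, 8 were on the array and 5 were tested, 3 with a positive and 2 with a negative mean. Apcdd1, a membrane inhibitor of WNT signalling, had C57 values of 0.14 and 0.86 beside 0.66, 0.83 and 0.65 for MF1. It was positive in 5 of 5 pools, the opposite sign to Sfrp1, with a mean of 0.61 ± 0.17 (unadjusted p = 0.0118). Notum, an enzyme that inactivates WNT proteins, was at -0.41 ± 0.18, negative in the 4 pools with both dye orders and on 6 of the 9 arrays that measured it. The antagonists as a group thus held genes of both signs, none with an adjusted p under 0.05 in the pool fit.

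The wider pathway was taken from a list of 78 genes of all roles outside the 9 antagonists, of which 69 were on the array and 43 genes with 47 probes were tested. Of these probes 32 were positive and 15 negative, with a median of 0.12, and 3 positive and 1 negative probe had an unadjusted p under 0.05. Among all tested probes 69.4% were positive, with a median of 0.09. With the arrays centred, 29 of the 47 were positive with a median of 0.07, beside 59.2% and 0.04 for all tested probes. None passed after adjustment.

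By role, the WNT ligands had 7 tested probes with a median of -0.04, and the smallest p among them was that of Wnt3a, a ligand of the cortical hem, at 0.45 ± 0.19. Both tested R-spondins, secreted enhancers of WNT signalling, had positive means, as did 69.4% of all tested probes. Rspo1 was at 0.21 ± 0.19 (limma, unadjusted p = 0.319), with 3 pools positive and 2 negative. Rspo3 was at 0.99 ± 0.16 (unadjusted p = 0.00111) and positive on 10 of 10 arrays. Porcn, needed for WNT secretion, was at 0.29 ± 0.14. The receptors and co-receptors had 11 probes with a median of 0.07, and Fzd7, a Frizzled receptor, stood out at 1.01 ± 0.16 (unadjusted p = 0.000998), positive on 10 of 10 arrays. Rspo3 and Fzd7 thus had ratios about as large as that of Sfrp1, with the opposite sign.

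Inside the cell, the 13 probes of signal transduction had a median of 0.12, and the smallest p was that of Dvl1, a scaffold downstream of Frizzled, at -0.48 ± 0.22. The 9 probes of target genes had a median of 0.16. Ccnd1, a cyclin of the G1 phase, was negative in 5 of 5 pools at -0.68 ± 0.23 (unadjusted p = 0.0256). Axin2, a widely used target of the beta-catenin pathway, was at 0.16 ± 0.37 with pools from -0.79 to 1.57. Lef1, which is both a mediator and a target, was at 0.18 ± 0.14.

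**Figure D4:**
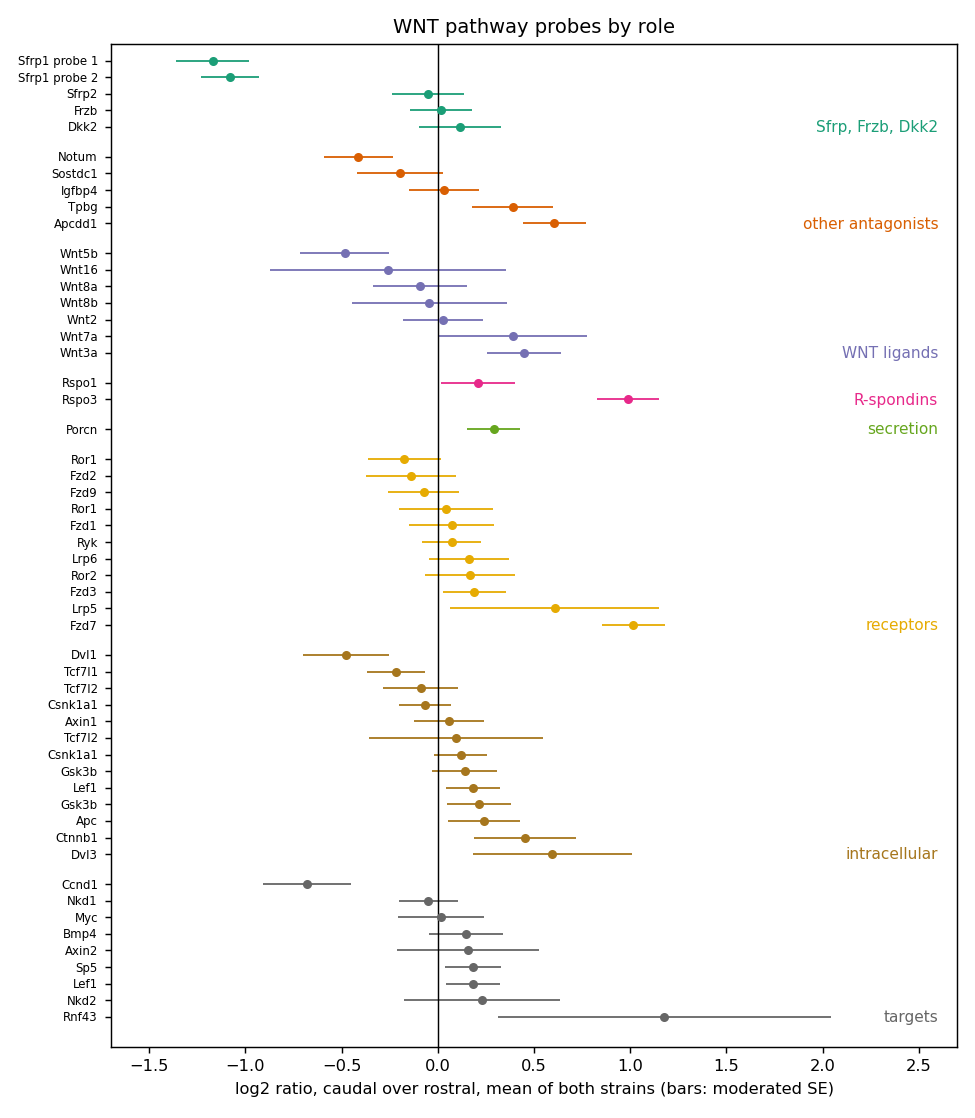
Log2 ratio of caudal over rostral, mean of both strains with the moderated SE as bars, for each tested probe of the WNT pathway, grouped by role and sorted by value within a role. The Sfrp1 probes are the lowest of the pathway, and Rspo3 and Fzd7, at 0.99 and 1.01, lie about as far on the other side. The highest point is Rnf43, a target, at 1.18 ± 0.87, with MF1 pool 2 at 4.81. Lef1 appears under 2 roles.

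The probes whose pool values were closest to those of Sfrp1 probe 2, the antagonist probe of smallest p, were sought among 7526 probes of other named genes measured in all 5 pools, by the root mean square difference. The closest was Mpped2, a metallophosphoesterase-like gene, at 0.349. Its C57 values were -1.10 and -1.30, and those of MF1 were -1.52, -1.16 and -1.31. Sall3, a zinc finger transcription factor, followed at 0.354, then Esm1, a secreted proteoglycan known from endothelium, at 0.426, the non-coding RNA Pantr1 at 0.439 and Fgfbp3, which binds FGF proteins, at 0.444. The other Sfrp1 probe was at 0.377, so only Mpped2 and Sall3 were closer to probe 2 than the gene's own second probe. All 5 genes had negative values in all 5 pools, which largely follows from choosing them by closeness to a probe negative in every pool.

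Markers of neighbouring tissue were read in the same way, and none passed after adjustment, either for the mean of both strains or for MF1 minus C57. The 11 tested probes for ventral telencephalon had a median of -0.24, with 7 negative, and the median by pool was -0.32 and 0.34 for C57, then -0.76, -0.38 and 0.24 for MF1. Dlx2, a factor of ventral progenitors with the smallest p of that list, was at 0.06 in C57 and -1.58 in MF1. Dlx1, a related factor, was at -0.28 in C57 and -1.69 in MF1. Other ventral genes went both ways in C57. Ebf1 was at -0.52, Nkx2-1 at -0.41, Isl1 at -0.36 and Gad2 at -0.45 at 1 of its probes and 0.08 at the other. Six3 was at 0.46, Dlx6 at 0.31, Gsx2 at 0.11 and Dlx5 at 0.10, and the C57 median of the list was 0.06. The 5 tested probes for surface ectoderm were all negative, with a median of -0.34. Krt18, a keratin, was at -0.28 in C57 and -2.61 in MF1, the latter from pools 2 and 3 only. Trp63, an epidermal transcription factor, was at -0.35 in C57 and -1.25 in MF1, and Krt8 at 0.06 and -0.73. The other keratins had the opposite order of the strains, with Krt5 at -0.33 in C57 and 0.08 in MF1 and Krt15 at -0.53 and -0.15. The median of the list by pool was -0.56 and -0.01 for C57, then -0.40, -0.12 and -1.62 for MF1.

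The hem and choroid plexus list had 8 tested probes with a median of 0.33, and Ttr, made by the choroid plexus, was at 1.68 ± 0.19. Blood was at a median of 0.41 over 6 probes, with Hbb-y, an embryonic globin, at 0.52 ± 0.15. By strain, the blood median was 0.62 in C57 and 0.08 in MF1, and Hbb-y was at 0.90 and 0.14. The 7 meninges and mesenchyme probes had a median of 0.01, with 3 negative. Fbn2, a fibrillin, was at 0.52 ± 0.22 and Col3a1 at -0.44 ± 0.29. For the 6 endothelial probes the median was 0.14, with 2 negative. Esam, an adhesion protein, was at 1.04 ± 0.33 and Tek at -0.17 ± 0.27. By strain, Esam was at 0.14 in C57 and 1.95 in MF1, the latter from pools 1 and 3 only. The 6 neuronal probes had a median of 0.23, with 1 negative. Neurod1, a neuronal transcription factor, was at 0.74 ± 0.14 and Reln, at its tested probe, at -0.65 ± 0.25. The 9 probes for neocortical progenitors, the labelled tissue, had a median of 0.10 (Lhx2, a cortical selector gene, 0.32 ± 0.15), and the antihem had 1 tested probe, for Tgfa, at -0.00 ± 0.13. Since the values are ratios, they do not show how much of any of these tissues a pool held, and the part of any marker list in the Sfrp1 ratio was not tested.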

How the data were processed

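The deposited values were read as log2 ratios of Cy5 over Cy3 from their range and signs. For the array maker, the scanner, background correction and any scaling, the sources used here give nothing. Per the labels, Trizol was used for the RNA, and amplified cDNA was labelled with Cy3 and Cy5. Values at 16.61, the log2 of 100000 (436 in all, none of an antagonist), were treated as missing, and 232 control spots were left out. Probes were named from the platform annotation: 16632 had 1 symbol, 139 several and 4995 none, and 15952 were matched by gene identifier to RefSeq. Dye labels gave the sign that makes each ratio caudal over rostral, arrays were left uncentred, and the 2 arrays of a pool were averaged. Testing needed both dye orders in 2 or more pools per strain (11855 probes). limma 3.58.1 in R 4.3.3 was fitted with a coefficient per strain, tested two-sided, with Benjamini-Hochberg adjustment over all tested probes; errors are moderated SE. There were 3 residual and 2.69 prior degrees of freedom. The signal behind each ratio is not known here, so precision is judged from the pools alone. The fit was tested on simulated pools with known changes and independent noise, without dye effects or offsets between pools. How it handles such effects and offsets was therefore not tested. The alternatives were centring, scaling, stricter and looser probe filters, single dye orders, single arrays with the pool as a random block, ceiling values kept, probes of a gene averaged, a robust prior, a block for the pool number, and each pool left out.

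The antagonists and all gene lists were chosen with earlier results of these data known. All 9 antagonists are named; from the pathway list, per role, the genes with an unadjusted p under 0.05 or else the one of smallest p; from each marker list, the gene of smallest p; and the 5 closest to the antagonist probe of smallest p. Axin2, Lef1, Rnf43, Notum and Rspo1 in the pathway, and Nr2f1 and Spry1 for the direction, were added after their values were seen. So were Dlx1, Dlx5, Dlx6, Gsx2, Six3, Ebf1, Nkx2-1, Isl1, Gad2, Trp63, Krt5, Krt8, Krt15, Col3a1, Tek and Reln from the marker lists. No coordinates or sequences are printed.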

Additional observations from a re-analysis of the deposited data

How the results depend on the processing

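Over the alternatives, 17 for probe 1 and 16 for probe 2, the mean ratio of both strains stayed negative for both Sfrp1 probes, and its adjusted p passed 0.05 under 1 of them, the fit of 10 centred single arrays. The number of probes called for both strains, 0 in the pool fit, was 1 with arrays centred and scaled, 1 with single arrays and the pool as a random block, and 8 when these arrays were also centred. For C57 it was 2 with arrays centred and scaled and 2 with centred single arrays, Sfrp1 probe 1 among the latter. For MF1 it ran from 0 to 37 when 1 pool was left out, with 37 without MF1 pool 1 and 24 without MF1 pool 3, no antagonist among them. The cause was not tested.

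Means near 0 changed sign. For both strains, Frzb was at -0.035 with arrays centred, in the pool fit and as single arrays alike, at -0.056 when also scaled and -0.13 on the arrays of the Cy3 order. Sfrp2 was at 0.030 when only the Cy5 order of caudal RNA was used, and Dkk2 at -0.046 when only the Cy3 order was. With 1 pool left out, Sfrp2 ran from -0.24 to 0.14, Dkk2 from -0.035 to 0.26 and Frzb from -0.12 to 0.15. For MF1 minus C57, Frzb was at 0.064 with centring, in both fits, 0.087 with scaling and 0.086 in the Cy3 order. Sfrp2 was at 0.011 with scaling and 0.050 in the Cy3 order, and in the Cy5 order Dkk2 was at -0.059 and Sfrp1 probe 2 at -0.085. With 1 pool left out, this difference ran from -0.48 to 0.28 for Sfrp2, -0.22 to 0.38 for Dkk2, -0.30 to 0.26 for Frzb, -0.013 to 0.38 for Sfrp1 probe 2 and 0.50 to 1.25 for Sfrp1 probe 1. With arrays centred and scaled it was larger, 1.88 at probe 1 and 1.11 at probe 2.

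Pools of the strains share only a number, which no label ties to a shared litter or day. With the pool number as a replicate block, MF1 minus C57 was 0.76 for Sfrp1 probe 1, 0.030 for Sfrp2, -0.17 for Dkk2 and 0.015 for Frzb, and no probe was called; the block left MF1 pool 3 without a partner. The low signal behind a ratio cannot be judged from these files, and 5 of the 9 antagonists lacked enough values for any test.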
